A study of Mus musculus with 6 samples.

Results

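The 1088 regions described here are the mouse microRNA genes in a table of 24012 gene regions, taken by name (a symbol beginning with Mir and a digit, or with Mirlet7). They comprise 1085 precursor genes and 3 host transcripts, Mir22hg, Mir17hg and Mir143hg. Chromatin immunoprecipitation followed by sequencing (ChIP-seq) had been done for histone H3 di- and trimethylated at lysine 79 (H3K79me2 and H3K79me3). The cells were primary mouse bone marrow hematopoietic progenitors, and in every group they carried a retrovirus expressing the leukemia fusion MLL-AF9. The groups were the fusion as WT, D544R or D546R, so that WT means the unaltered fusion and not untransduced cells. The labels name neither the strain, age or sex of the mice nor whether the transduced cells were a pool or a clone. Each of the 3 fusions gave 1 library per mark, which allows no test between groups, and every interval printed here covers counting error alone.

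MicroRNAs are short RNAs that guide silencing complexes to messenger RNAs, mainly by pairing of a seed, bases 2 to 8 of the mature strand. Many are processed from introns or exons of longer host transcripts, and others have promoters of their own. H3K79 is methylated by DOT1L, which binds AF9, and the mark lies over the first part of transcribed genes. In leukemia with an MLL fusion it is known to be high over fusion targets such as the HOXA cluster.

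The mature strands below belong to the regions on which the results turn, with the seed in capitals. Sequences are from RefSeq (GRCm38.p6), where 957 of the 1088 members had a mature sequence. The first pair, from the HOX clusters, shares the seed AGGUAGU, the next 3 share AGCAGCA, and the following pairs share GAGAACU and AGUGCAA.
mmu-miR-196b-5p: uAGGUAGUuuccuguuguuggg
mmu-miR-196a-5p: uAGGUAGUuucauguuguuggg
mmu-miR-15a-5p: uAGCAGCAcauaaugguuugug
mmu-miR-15b-5p: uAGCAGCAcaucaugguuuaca
mmu-miR-16-5p: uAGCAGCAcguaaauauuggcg
mmu-miR-146b-5p: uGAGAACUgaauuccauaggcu
mmu-miR-146a-5p: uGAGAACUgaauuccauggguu
mmu-miR-301a-3p: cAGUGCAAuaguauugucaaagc
mmu-miR-130a-3p: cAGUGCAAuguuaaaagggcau
The next 6 each have a seed of their own among the strands shown. They come from a myeloid microRNA gene, a blood cell gene, and regions that were lowest in D546R or highest among intergenic regions.
mmu-miR-223-3p: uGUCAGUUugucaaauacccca
mmu-miR-142a-3p: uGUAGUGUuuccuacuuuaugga
mmu-miR-466i-3p: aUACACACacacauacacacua
mmu-miR-706: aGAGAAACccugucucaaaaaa
mmu-miR-1931: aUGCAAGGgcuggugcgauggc
mmu-miR-101c: aCAGUACUgugauaacuga

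A microRNA region was in most cases a window of 2020 to 2147 bp (median 2080), namely the hairpin and 2 kb beside it. Of the precursors 1075 had such a window and 10 were spans over 3 kb. The added 2 kb lay on the low-coordinate side in 350 of 425 minus-strand members compared with a plus-strand neighbour, on the high side in 0, and could not be placed in 75. For these minus-strand members the window therefore covers sequence downstream of the hairpin, not its promoter. Of the 1075 windows, 727 lay wholly inside another gene's interval (590 hosts), 83 overlapped one in part and 265 overlapped none. Clustered microRNAs share counts: 282 windows lay in runs of overlapping windows, the largest of 16. Sums below therefore use 903 windows that do not overlap each other, 637 intragenic, 55 partly overlapping and 211 intergenic.

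Libraries held 3558329 to 5993741 counts in H3K79me2 and 5207395 to 6652571 in H3K79me3. The windows had few of them. The median window had 7, 6 and 4 counts in H3K79me2 in WT, D544R and D546R (the order used throughout) and 3, 4 and 1 in H3K79me3. The D546R H3K79me3 library had 527 windows at 0 (49.0%), against 309 in WT and 316 in D544R. From the share of short regions at 0, each independent fragment was estimated to have given 3.26 to 4.78 reads in the H3K79me2 libraries. In H3K79me3 the estimates were 9.73, 8.12 and 18.6. Intervals here are divided by these numbers and are called fragment intervals. The estimate takes all short regions of a library to have the same density per kb. Real differences between regions would also raise it, so it is not a measured duplication rate. A window then held on average 3.37, 3.18 and 1.65 fragments in H3K79me2 and 1.35, 1.29 and 0.780 in H3K79me3, which makes single windows in H3K79me3 the least certain values. In H3K79me2 the median level per kb of 8 progenitor and myeloid marker genes was 2.24, 2.44 and 4.04 times that of olfactory receptor genes. In WT the 8 ranged from 0.983 (Csf3r) to 8.06 (Ptprc). Medians were 1.48, 0.826 and 0.787 for 3 lymphoid markers and 0.651, 0.722 and 1.04 for 3 erythroid ones. For 3 markers of other tissues they were 0.909, 0.693 and 0.799. In H3K79me3 the medians were 1.59, 1.39 and 1.54 (progenitor and myeloid) and 0.765, 0.890 and 0.599 (lymphoid). There they were 0.724, 0.520 and 1.31 (erythroid) and 0.342, 0.554 and 0.695 (other tissues). In a bulk sample fewer cells of a type and less of the mark per cell cannot be told apart.

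Over the microRNA windows as a class, H3K79me2 was higher inside host genes than outside genes, with each library read on its own. Levels are counts per kb relative to 1122 olfactory receptor genes, which are silent outside olfactory neurons. Intragenic windows stood at 1.94 (fragment interval 1.84 to 2.05), 2.20 (2.08 to 2.32) and 2.20 (2.04 to 2.37) times that background in H3K79me2. Intergenic windows stood at 1.35 (1.23 to 1.48), 1.35 (1.22 to 1.49) and 1.46 (1.27 to 1.67) times it. Intragenic and intergenic intervals did not overlap in any of the 3 libraries. The 55 partly overlapping windows had 2.58, 3.27 and 2.56 times the background. All genes together had 5.82, 4.16 and 3.46 counts per kb, against 3.60, 2.44 and 1.88 for olfactory receptor genes. Relative to all genes, intragenic windows stood at 1.20, 1.29 and 1.20 and intergenic windows at 0.836, 0.793 and 0.793.

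In H3K79me2 the ratio of intragenic to intergenic counts per kb was 1.44 (1.31 to 1.58), 1.63 (1.47 to 1.81) and 1.51 (1.32 to 1.74). Mir101c, an intergenic region, alone held 13.9%, 8.87% and 20.7% of all intergenic counts. Without it the ratios were 1.66, 1.78 and 1.89. The sums weigh windows with many counts most: between the median windows of the classes the ratio was 1.02 in WT, 1.20 in D544R and 1.35 in D546R.

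In H3K79me3 all genes together had 5.69, 5.06 and 6.46 counts per kb, against 5.29, 5.09 and 6.49 for olfactory receptor genes. The microRNA windows, too, lay near the olfactory background, which is thus no trait of these windows. Intragenic windows stood at 1.17 (1.08 to 1.27), 0.989 (0.913 to 1.07) and 1.14 (1.03 to 1.27) times it, and intergenic windows at 1.18 (1.04 to 1.33), 0.938 (0.822 to 1.07) and 0.886 (0.738 to 1.06). The ratio of the classes was 0.997 (0.870 to 1.15) in WT, 1.05 (0.916 to 1.22) in D544R and 1.29 (1.07 to 1.57) in D546R. Without Mir101c it was 1.12, 1.27 and 1.47. Between the median windows it was 1.34 in WT and 1.34 in D544R, above the ratio of the H3K79me2 medians in those libraries, so the contrast between the marks holds for the sums and not for the medians. Partly overlapping windows had 1.73, 1.27 and 0.930 times the background.

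**Figure D1:**
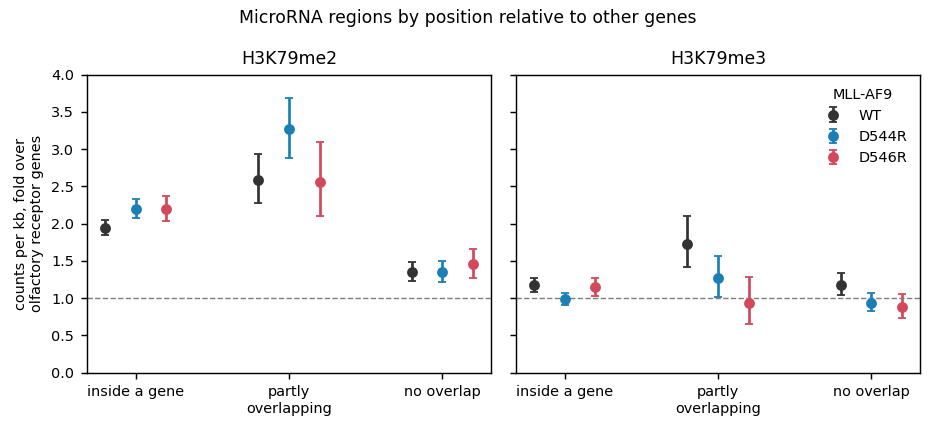
Counts per kb of microRNA windows inside, partly over and outside other genes (x axis), as a fold over olfactory receptor genes (y axis, linear), for 1 library per point, with bars for the 95% fragment interval. In H3K79me2 the windows inside genes stand at 1.94 to 2.20 and those outside at 1.35 to 1.46, while in H3K79me3 both lie between 0.886 and 1.18.

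Within host genes the H3K79me2 level of a window was highest near the host start and lowest farthest from it, with a higher value at 50 to 100 kb than at 20 to 50 kb in WT and D544R. Of the 637 intragenic windows 516 had a host with a known strand. Distance ran from the host start to the middle of the window. The 2 kb extension was taken to lie on the low-coordinate side of every host, which was not determined for minus-strand hosts. A window could thus lie ahead of the start, as Mir125b-1 did at -0.37 kb. In WT the level was 2.76 (2.54 to 3.00) times background under 5 kb from the start (133 windows) and 1.85 (1.69 to 2.03) at 5 to 20 kb (152 windows). It was 1.33 (1.16 to 1.52) at 20 to 50 kb, 1.56 (1.34 to 1.81) at 50 to 100 kb and 1.07 (0.898 to 1.27) at 100 kb or more (71 windows). The order held in all 3 libraries for the nearest against the farthest windows: D544R had 3.20 and 1.21, and D546R 3.46 and 1.13. In H3K79me3 the nearest windows had 1.39, 1.07 and 1.60 times background and the farthest 1.09, 0.801 and 0.725. Of 30 summed log2 ratios over the distance groups, 4 had intervals that left out no change. In H3K79me2 these were 0.21 (0.02 to 0.39) for D546R against WT under 5 kb and -0.40 (-0.80 to -0.01) for D546R against D544R at 50 to 100 kb. In H3K79me3 they were 0.61 (0.15 to 1.07) for D546R against WT at 20 to 50 kb and 0.50 (0.18 to 0.81) for D546R against D544R under 5 kb.

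**Figure D2:**
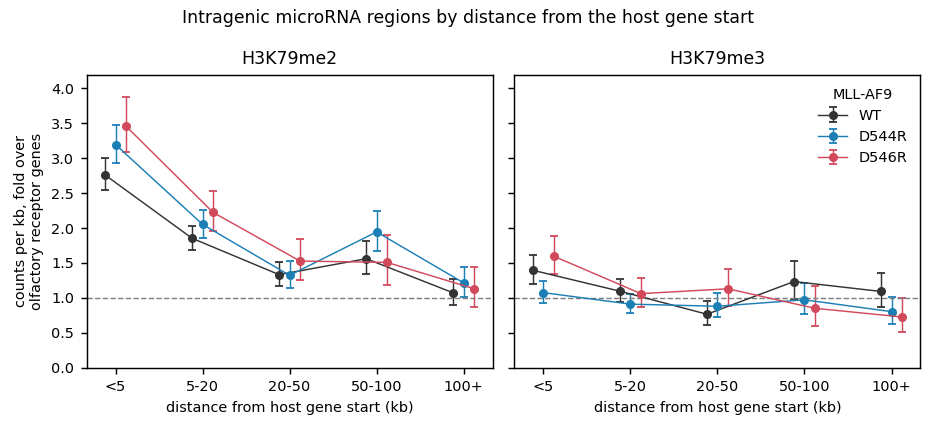
Counts per kb of 516 intragenic microRNA windows by distance from the host gene start (x axis, kb), as a fold over olfactory receptor genes (y axis, linear), for each library, with bars for the 95% fragment interval. In H3K79me2 the points fall from 2.76 to 3.46 under 5 kb to 1.07 to 1.21 at 100 kb or more, with a rise at 50 to 100 kb in WT and D544R.

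Host and window levels went together more closely in H3K79me2. When 634 windows were put into 4 equal groups by the level of the rest of their host, the WT windows had 0.817, 1.03, 1.67 and 4.23 times background from the lowest host group to the highest. In H3K79me3 they had 0.745, 0.943, 0.944 and 2.06. Across windows, which share their library and in part their host, Spearman's rho was 0.43, 0.41 and 0.41 in H3K79me2 and 0.12, 0.21 and 0.11 in H3K79me3, given as a description. The D546R H3K79me3 groups had no such order, at 1.20, 0.776, 1.16 and 1.45. Windows held an estimated 0.780 to 1.35 fragments in H3K79me3 against 1.65 to 3.37 in H3K79me2. Greater counting error also lowers rho, and its part in the difference between the marks was not tested.

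The comparison of each mutant fusion with WT asked whether the methylation of a locus depends on the exchanged residue. In H3K79me2 the intragenic and intergenic sums differed little from WT. Intragenic windows summed to 9281, 7124 and 5480 counts, a log2 ratio to WT after scaling of 0.09 (0.00 to 0.17) for D544R and 0.06 (-0.05 to 0.16) for D546R. Intergenic windows, with 2143, 1454 and 1206 counts, stood at -0.09 (-0.28 to 0.09) and -0.01 (-0.23 to 0.21). Partly overlapping windows, with 1067, 915 and 551 counts, stood at 0.25 (0.00016 to 0.50) and -0.14 (-0.46 to 0.19), and at -0.38 (-0.71 to -0.07) between the mutants. With olfactory receptor genes as the scale the intragenic H3K79me2 ratios were 0.18 (0.09 to 0.26) for D544R and 0.18 (0.07 to 0.28) for D546R.

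In H3K79me3 the intragenic ratios were -0.13 (-0.27 to 0.01) and 0.01 (-0.15 to 0.17), or -0.25 (-0.39 to -0.11) and -0.04 (-0.20 to 0.12) with olfactory receptor scaling. Intergenic windows were lower in D546R, at -0.36 (-0.67 to -0.06), and at -0.21 (-0.46 to 0.04) in D544R, the latter -0.33 (-0.58 to -0.08) with olfactory receptor scaling. Partly overlapping windows had 1048, 741 and 692 counts and stood at -0.85 (-1.43 to -0.30) in D546R, with 54.5% of them at 0 in that library against 21.8% in WT.

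Single regions were called lower or higher when the ratio was at least 2-fold, the mean normalised count over the mark's 3 libraries was at least 20 and the 95% fragment interval left out no change. This is a rule of size, not a significance test. In H3K79me2, 113 members reached the minimum of 20. For D546R against WT 5 were lower (4.42%) and 4 higher (3.54%), while the rule called 1.1% of all genes lower and 1.15% higher. Among other regions shorter than 5 kb, which have comparably few counts, the shares were 1.61% and 2.32%. Of the 4 higher members, 2 (Mir6962 and Mir223) reached the minimum only through the D546R library. The share of higher calls is therefore no support for a change of the members. The median log2 ratio of the 113 was 0.23, against 0.02 for all genes tested and 0.04 for the short ones. For D544R against WT 0 were lower and 0 higher, where the rule called 0.0459% and 0.166% of all genes and 0.179% and 0.536% of other short regions. With the counting interval in place of the fragment interval 1 was lower and 4 were higher. The shares of all genes and of short regions were not computed with that interval.

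Among the lower regions Mir196b stood out in size. It gives a microRNA of the HOXA cluster that targets HOX messages and is itself a known target of MLL fusions. The region (NR_029912, mm9 chromosome 6, 52178080 to 52180164, minus strand) had 110, 126 and 4 counts in H3K79me2 and 108, 90 and 17 in H3K79me3. D546R was the low library in both marks, and WT and D544R lay close together. The log2 ratio of D546R to WT was -3.84 (-10.21 to -1.19) in H3K79me2, 14.3-fold lower, and -2.88 (-8.78 to -0.05) in H3K79me3. The second no longer passed the rule when libraries were scaled by total counts. For D544R against WT the ratios were 0.66 (-0.08 to 1.43) and -0.09 (-1.43 to 1.25).

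Mir196b overlapped the interval of Hoxa10, a homeobox gene of progenitors, by 969 bp, all within the first 2 kb on the low-coordinate side. The Hoxa10 interval of 11658 bp exceeds the RefSeq gene of 9658 bp by 2 kb. Hoxa10 is on the minus strand, but the side of its extension was not determined. If it is the low-coordinate side, as in the minus-strand microRNA members that could be placed, the shared stretch is extension and not the Hoxa10 transcript. Hoxa10 itself had 319, 302 and 26 counts in H3K79me2, a ratio of D546R to WT of -2.78 (-4.38 to -1.56), and stood at -0.95 (-2.50 to 0.38) in H3K79me3.

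The other microRNAs of HOX clusters had little to lose. The 6 together held 142, 145 and 22 counts in H3K79me2, which was 3.14, 4.73 and 0.933 times background, and Mir196b supplied 110, 126 and 4 of these. Their summed log2 ratio of D546R to WT was -1.85 (-3.67 to -0.47) in H3K79me2 and -1.35 (-3.46 to 0.31) in H3K79me3. Mir196a-2, beside Hoxc10, had 21, 12 and 1 counts in H3K79me2 and 25, 5 and 20 in H3K79me3. Mir196a-1 had at most 1 count in any H3K79me2 library, Mir10b at most 1, Mir10a at most 9 and Mir615 at most 7, so that no change was detectable there. Over the 3 regions with the seed AGGUAGU the sums were 131, 139 and 5, a log2 ratio of -3.79 (-9.04 to -1.36) for D546R.

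Mir466i, one of a repeat-rich microRNA family, was the other region called lower in D546R in both marks. It lies inside Cdk13, a kinase gene of transcription elongation, on the opposite strand (NR_035412, chromosome 13, 17837307 to 17839427). Its counts were 115, 108 and 8 in H3K79me2 and 163, 81 and 50 in H3K79me3, with D546R lowest in each. The ratios of D546R to WT were -2.97 (-6.58 to -0.90) and -1.94 (-4.55 to -0.09). The rest of Cdk13 was lower too, at -1.30 (-1.48 to -1.12) and -2.18 (-2.55 to -1.82), and the region's intervals overlapped those of its host.

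Mir1931 was lower in H3K79me2 while its host was not called in that mark. The window (NR_035452, chromosome 10, 92623530 to 92625648), inside the kinase gene Cdk17, had 217, 137 and 47 counts, highest in WT and lowest in D546R. Its log2 ratio of D546R to WT was -1.38 (-2.54 to -0.39), whereas the rest of Cdk17, with 3514 counts in WT and 1820 in D546R, stood at -0.13 (-0.31 to 0.04). These intervals did not overlap. In H3K79me3 the window had 111, 59 and 41 counts and was not called, at -1.67 (-4.70 to 0.43). Cdk17 as a whole was called lower there, at -1.10 (-1.48 to -0.74). Mir15a, a repressor of cell cycle and survival messages in the Dleu2 transcript, had 109, 66 and 19 counts in H3K79me2 and a ratio of -1.68 (-3.69 to -0.18). Mir16-1, whose window covers nearly the same stretch, had 102, 61 and 25 counts and did not pass the rule, at -1.20 (-2.91 to 0.18). The rest of Dleu2 stood at -0.24 (-0.43 to -0.06), an interval that overlaps the window's. In H3K79me3 Dleu2 as a whole was called lower in D546R, at -1.25 (-1.64 to -0.89). Mir15a had 13, 50 and 0 counts there and was not called. The fifth region lower in H3K79me2, Mir7652, is an intergenic span of 29942 bp, so that most of its counts need not lie at the hairpin. It had 131, 75 and 22 counts at -1.74 (-3.56 to -0.34). Without spans over 3 kb 4 regions were lower.

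Regions higher in D546R in H3K79me2 included a marker of granulocytes and monocytes. Mir223, which is induced during myeloid differentiation and restrains neutrophil activity, had 18, 8 and 39 counts. D546R was highest, with a log2 ratio of 1.89 (0.10 to 4.00) to WT and 2.56 (0.46 to 5.50) to D544R. In H3K79me3 it had 17, 1 and 5 counts and was below the minimum. The rest of its host, F630028O10Rik, held only 11 (WT) and 5 (D546R) H3K79me2 counts, at -0.30 (-5.88 to 3.41). The median of the 8 progenitor and myeloid marker genes was also highest in D546R in H3K79me2, as given above, but the genes differed. Relative to olfactory receptor genes Ptprc, Spi1, Mpo, Csf3r and Itgam were higher in D546R than in WT. Myb (6.75 in WT, 6.71 in D546R), Kit (1.95 and 1.96) and Cd34 (1.19 and 1.20) were level. What part this has in the Mir223 result was not tested.

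The remaining 3 were in protein-coding hosts. Mir6962, in the activin receptor gene Acvr1b, had 9, 12 and 49 counts in H3K79me2, a ratio of 3.17 (1.12 to 6.27), while the rest of Acvr1b stood at 0.55 (-0.0012 to 1.09). The Mir6962 window, too, reached the minimum mean only through the D546R library. Mir3109, in the annexin gene Anxa2, had 41, 60 and 66 counts and stood at 1.49 (0.23 to 2.83), with the rest of Anxa2 at 0.83 (0.39 to 1.27). Mir3064, in the RNA helicase gene Ddx5, had 36, 23 and 54 and stood at 1.39 (0.00 to 2.85), a call lost with total counts or TMM scaling. In H3K79me3 Mir3064 went the other way, with 57, 42 and 0 counts. It was not called there, as the interval for D546R against WT ended at a log2 ratio of 0.50. Mir3109 had 55, 51 and 39 H3K79me3 counts, at -0.74 (-4.01 to 1.74), and Mir6962 had 0 in each library.

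D546R against D544R asked whether the mutants differ from each other. In H3K79me2 3 regions were lower and 5 higher, 2.65% and 4.42% of 113, against 1.17% and 0.895% of all genes and 1.61% and 2.68% of other short regions. The lower ones were Mir196b (-4.50, -10.86 to -1.89), Mir466i (-3.35, -6.95 to -1.30) and Mir1931 (-1.19, -2.37 to -0.17). Besides Mir223, Mir6962 and Mir3064, the higher ones were Mir146b and Mir101c. Of these 5, 2 (Mir223 and Mir6962) reached the minimum only through the D546R library. Mir146b, an inflammation-induced microRNA, had 34, 20 and 50 counts and a ratio of 1.65 (0.10 to 3.38). Mir146, which shares its seed, had 11, 5 and 12. Mir101c had 297, 129 and 250 and a ratio of 1.30 (0.68 to 1.94), with D544R the low library. In H3K79me3 D544R was instead the highest for Mir101c, with 308, 368 and 319 counts. The log2 ratio of D544R to WT there was 0.43 (-0.26 to 1.13).

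**Figure D3:**
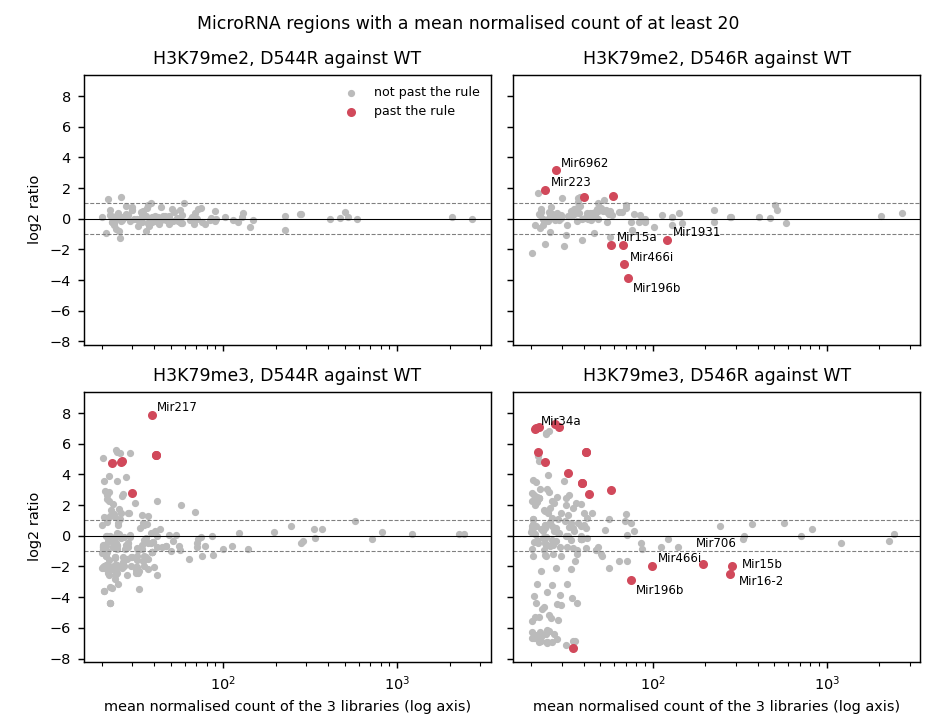
Log2 ratio to WT (y axis) against mean normalised count (x axis, log scale) for microRNA regions with a mean of at least 20, by mark and mutant; red points passed the 2-fold rule and dashed lines mark a 2-fold difference. In H3K79me2 D544R has 0 red points and D546R has 5 lower and 4 higher, while in H3K79me3 the spread widens towards few counts and the higher calls lie at means under 100.

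In H3K79me3 the regions lower in D546R were windows with 79 to 438 counts in WT. Of 209 members that reached the minimum, 6 were lower (2.87%) and 14 higher (6.70%), against 4.13% and 4.67% of all genes and 2.01% and 4.67% of other short regions. The share of lower calls was thus no larger than that of all genes. The median log2 ratio of the 209 was -0.06, against 0.00 for all genes.

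Mir15b and Mir16-2 form a cluster inside Smc4, a condensin gene, and give microRNAs that restrain cyclins and BCL2. Their windows overlap and had the most counts of any microRNA window in WT in both marks. Mir15b (NR_029529, chromosome 3, 68811694 to 68813757) had 418, 296 and 126 counts in H3K79me3 and 343, 301 and 207 in H3K79me2. Mir16-2 had 438, 281 and 91 in H3K79me3. D546R was the low library in H3K79me3, and the ratios to WT were -1.98 (-3.41 to -0.80) and -2.51 (-4.23 to -1.18). In H3K79me2 Mir15b stood at 0.09 (-0.47 to 0.63) in D546R. The rest of Smc4, without Mir15b, was lower in H3K79me3 as well, at -1.80 (-2.43 to -1.22). Against D544R, Mir15b was at -1.65 (-3.09 to -0.45).

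Mir706, in the WNK kinase gene Wnk1 (NR_030487, chromosome 6, 119982246 to 119984329), had 238, 247 and 80 counts in H3K79me3 and a ratio of -1.82 (-3.73 to -0.33). The rest of Wnk1 was lower too, at -1.07 (-1.36 to -0.79). In H3K79me2 its counts of 302, 251 and 149 gave -0.20 (-0.85 to 0.42). Mir6378 had 79, 22 and 0 counts in H3K79me3 and its fragment interval for the log2 ratio of D546R to WT ended at -0.11, close to no change. It was the 1 of the 6 lower regions that reached the minimum mean only through the WT library. Across the 11 regions that carry the AGCAGCA seed of miR-15 and miR-16, of which 8 do not overlap, the H3K79me3 sums were 449, 414 and 168. That is a log2 ratio of -1.67 (-2.88 to -0.62) for D546R and 0.05 (-0.55 to 0.66) for D544R. In H3K79me2 the sums of 481, 386 and 242 gave -0.17 (-0.68 to 0.31) for D546R. Seeds were grouped after the values were seen, and Mir15b supplies most of these counts.

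The 14 regions higher in D546R in H3K79me3 had few counts in WT, which the count minimum in part imposes: 11 of them reached a mean of 20 only through the D546R library. Their number is therefore no support for a change of the members. They had at most 14 counts there and 75 to 125 in D546R, and lay in 11 separate stretches. Mir34a, a p53-induced microRNA, had 0, 0 and 75 counts. Mir1929, inside the autophagy gene Atg5, had 0, 6 and 90, and Mir194-1, in Iars2, had 0, 18 and 79. Their fragment intervals for the log2 ratio began at 0.10, 0.49 and 0.21, so the size of the difference is hardly bounded. The rest of Atg5 and Iars2 stood at 0.32 (-0.30 to 0.94) and -0.32 (-1.70 to 0.94). The library behind these calls is the one with an estimated 18.6 reads per fragment, and by that estimate each rests on few fragments. At a mean of at least 50 the number higher was 1.

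D544R against WT gave 0 lower and 7 higher of 209 in H3K79me3, against 1.35% and 3.39% of all genes and 0.646% and 4.74% of other short regions. With the counting interval 73 were lower and 38 higher. The shares just given are for the fragment interval and are no background for these numbers. The 7 (3.35%) had at most 11 counts in WT, and 5 of them reached the minimum only through the D544R library. Mir217, an intergenic region, had 0, 103 and 0 counts, and its fragment interval for D544R against WT began at a log2 ratio of 1.48. Mir107, in Pank1, had 11, 69 and 0 and stood at 2.77 (0.06 to 7.77), a call lost with olfactory receptor scaling. The median log2 ratio of the 209 was -0.63, below that of all genes (-0.01) and of other short regions (-0.18). D546R against D544R gave 5 lower (2.39%) and 16 higher (7.66%), against 4% and 4.24% of all genes and 2.44% and 4.67% of other short regions. Mir1905, in Mex3a, had 0 counts in D544R and 110 in D546R, with a fragment interval that began at a log2 ratio of 0.98. Of the 16 higher regions 15 reached the minimum only through the D546R library. Of the 5 lower ones, 2 (Mir217 and Mir107) reached it only through the D544R library.

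The ratio of a window was compared with that of the rest of its host. In H3K79me2, over 72 windows with enough counts the median difference in log2 ratio between window and host was -0.01 for D544R against WT, 0.04 for D546R against WT and -0.08 between the mutants. With 50 as the minimum mean the D544R value became 0.32 and the value between the mutants -0.29. In H3K79me3, over 129 windows, it was -0.68, -0.16 and 0.54, with quartiles of -1.93 and 2.17 for D546R against WT. There the 0.54 turned to -0.049 when the minimum mean was 10, and the -0.68 became -0.020 when it was 50. Window and host had the same sign in 43 of 72 (H3K79me2) and 61 of 129 (H3K79me3) for D546R against WT. The 2 regions called in both marks for D546R against WT, Mir196b and Mir466i, were lower in both, and 0 regions were called in opposite directions. The share of all genes called in both marks was not counted. With so few calls these numbers therefore do not show whether the marks go together.

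Blood cell microRNAs carried H3K79me2 above background, while their H3K79me3 level rested largely on the Mir15b window. Of 44 listed, 43 were in the table and 29 did not overlap, with levels of 3.74, 4.19 and 4.53 times background in H3K79me2 and 2.28, 1.59 and 1.76 in H3K79me3. Without Mir15b and Mir16-2, left out after the values were seen, the levels were 2.24, 2.23 and 2.80 in H3K79me2 and 1.00, 0.644 and 1.49 in H3K79me3. In H3K79me3 13, 16 and 18 of the 43 were at 0, and the median member had 7, 1 and 3 counts.

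For D546R against WT, 12 listed members reached the minimum in H3K79me2, of which Mir15a was lower and Mir223 higher, where the rule called 1.1% and 1.15% of all genes. Their median log2 ratio was 0.26 against 0.02 for all genes. The 12 include overlapping windows of the Mir15a, Mir15b and Mir23a clusters, which share counts. In H3K79me3 15 reached it, with the overlapping Mir15b and Mir16-2 lower, Mir34a higher (4.13% and 4.67% of all genes) and a median of -0.05 against 0.00 for all genes. The list's summed ratio there was -0.33 (-0.94 to 0.26), and 0.61 without Mir15b and Mir16-2.

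Several well known blood microRNAs were not called, some of them because they were below the minimum. Mir142, which is specific to blood cells, had 50, 40 and 37 counts in H3K79me2 and 1, 1 and 3 in H3K79me3. The median window had 3, 4 and 1 counts in H3K79me3, where a fragment gave an estimated 8.12 to 18.6 reads. Counts this few cannot show whether Mir142 lacks the second mark. Its H3K79me2 ratios were 0.15 (-1.12 to 1.41) for D544R and 0.38 (-1.13 to 1.80) for D546R. Mir21, a growth-promoting microRNA at the far end of Vmp1, had 44, 28 and 28 counts in H3K79me2 and a D546R ratio of 0.16 (-1.58 to 1.74). Mir155, an immune activation microRNA, had 23, 11 and 15, and Mir150, of mature lymphocytes, 7 in each library. Mir451 and Mir144, the erythroid pair with overlapping windows, had at most 4 counts in H3K79me2. These regions were below the minimum there and could not be called. In H3K79me3 Mir451 and Mir144 each had 10, 0 and 67 counts, reached the minimum and were not called. Mir23a, a window shared in part with Mir27a and Mir24-2, had 33, 28 and 24 and a D546R ratio of 0.35 (-1.59 to 2.14).

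**Figure D4:**
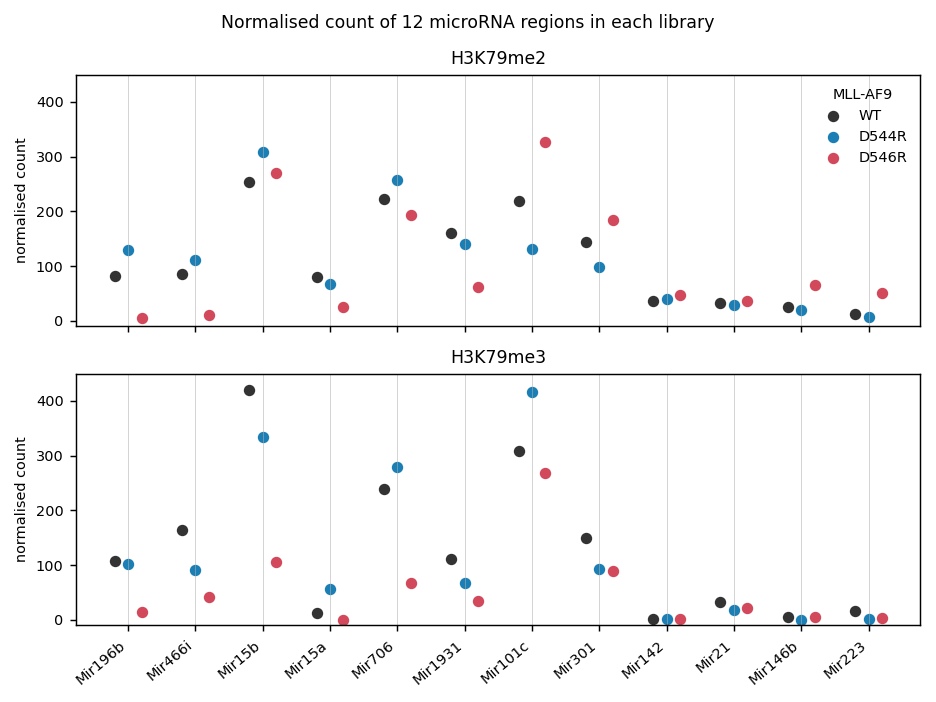
Normalised count (y axis, linear) of 12 named microRNA regions (x axis) in the 3 libraries of each mark, 1 point per library and no error bar. D546R is the low point for Mir196b, Mir466i and Mir706 in both marks and for Mir15b in H3K79me3, and is the high point for Mir223 and Mir146b in H3K79me2.

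Of the growth-related lists, the 12 let-7 genes (9 windows that do not overlap) stood at 4.17, 4.80 and 4.32 times background in H3K79me2 and 2.22, 1.33 and 1.21 in H3K79me3. Members of this family repress growth-promoting messages. Mirlet7i had the most counts, 125 in H3K79me2 and 96 in H3K79me3 in WT, and 4 members reached the minimum in each mark. None of the 4 was called, which says little at background shares of 0.0459% to 4.67% of all genes. Their summed log2 ratio for D546R was -0.07 (-0.72 to 0.55) in H3K79me2 and -0.83 (-2.21 to 0.39) in H3K79me3. The miR-17-92 family, which promotes growth and survival, had 2.98, 3.15 and 3.83 times background in H3K79me2 with 3 windows that do not overlap, and none of the 6 tested members, which lie in 1 cluster, was called. Mir301, in Ska2, shares the seed of Mir130a and ranked among the windows with the most counts per kb in both marks in WT. It had 194, 97 and 141 counts in H3K79me2 and a D546R ratio of 0.36 (-0.36 to 1.05).

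Lists of microRNAs from other tissues lay near or below the background. MicroRNAs of muscle, neural, liver and embryonic cells, with 23 windows that do not overlap, stood at 0.957, 1.17 and 0.634 times olfactory receptor genes in H3K79me2 and 0.700, 0.628 and 0.608 in H3K79me3. The imprinted chromosome 12 cluster, with 20 such windows of 48 members, stood at 0.935, 0.915 and 0.730 and at 1.09, 0.643 and 1.06. In H3K79me2 no member of either list reached the minimum of 20, so that none could be called. In H3K79me3 1 and 7 members reached it and none was called, where 1.35% to 4.67% of all genes were called in a direction.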

How the data were processed

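The values are the authors' deposited counts of reads in each gene region, whole numbers with no scaling, for 6 libraries. Per the file headers a region begins 2 kb ahead of the start site and stops at the end of the transcript. The submitters' processing notes name mm9, bedtools, Bowtie and DESeq; roles, versions and duplicate handling: not given in the sources used here. Starts are printed counted from 1.

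Size factors were the median of ratios within a mark (23029 and 20863 genes with counts in all 3 libraries). Log2 ratios used a prior count of 0.5. Intervals were exact conditional binomial (Clopper-Pearson, 95%) on counts divided by the reads per fragment, estimated from 4591 autosomal regions shorter than 5 kb. Members and lists were chosen with earlier results of these data known. Leaving out spans over 3 kb, distance bins, host groups and seed groups were chosen after the values were seen. The host was the smallest gene containing a window, and the window's counts were subtracted from it.

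Named regions were the HOX cluster and blood cell lists, the 8 with the most counts per kb in WT per mark, and up to 5 lowest and 5 highest past the rule per comparison. Of overlapping regions the one with the highest mean was named. Mirlet7i, Mir16-2 beside Mir15b, and the lone members named where a count was small fall outside this and were chosen after their values were seen. Software was Python 3.11.15, numpy 2.4.6, pandas 2.3.3, scipy 1.17.1 and, for TMM factors as an alternative scaling, edgeR 4.0.16 in R 4.3.3. Other alternatives were total counts, olfactory receptor scaling, other minimums, thresholds, priors, intervals and overlap rules. The calling rule was tested on simulated data.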

Additional observations from a re-analysis of the deposited data

How the results depend on the processing

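No paired analysis was possible because each group has 1 library. With the counting interval, calls (lower, then higher) in H3K79me2 were 1 and 4 for D544R against WT, 11 and 11 for D546R against WT, and 10 and 9 for D546R against D544R. In H3K79me3 they were 73 and 38, 67 and 59, and 64 and 76. No share over all genes was computed with that interval, so these numbers have no background beside them. A mean of at least 50 left 1 higher for D546R against WT and 1 for D546R against D544R in H3K79me2. In H3K79me3 it left 0 higher for D544R against WT, 1 for D546R against WT, and 3 lower and 1 higher for D546R against D544R. It also moved the median window minus host ratio to 0.32 (H3K79me2, D544R against WT), -0.29 (H3K79me2, D546R against D544R) and -0.020 (H3K79me3, D544R against WT). At a mean of at least 10 that median for D546R against D544R in H3K79me3 turned from 0.54 to -0.049; the cause of these moves was not tested. A 1.5-fold threshold called 1 lower and no count minimum 2 higher for D544R against WT in H3K79me2.

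Olfactory receptor scaling called 7 higher (H3K79me2, D546R against WT), and 1 lower and 4 higher (H3K79me3, D544R against WT). It moved the intragenic sums in H3K79me2 to 0.18 in both mutants, and all genes by 0.12 for D546R in H3K79me2 and by -0.12 for D544R in H3K79me3. Counting partly overlapping windows as intergenic gave intragenic to intergenic ratios of 1.21, 1.26 and 1.31 in H3K79me2. Medians over windows gave 1.02 and 1.20 in WT and D544R, and 1.34 and 1.34 in H3K79me3 (none for D546R, whose median intergenic window there was at 0). Chosen after seeing the data, leaving out Mir101c gave 1.66 (WT) and 1.89 (D546R) in H3K79me2 and 1.27 (D544R) in H3K79me3, and including spans over 3 kb gave 1.63 (WT) and 1.86 (D546R) in H3K79me2. Without Mir15b and Mir16-2 the blood cell sum in H3K79me3 was 0.61 for D546R against WT and 1.13 against D544R. Of 876 alternatives for named regions 861 kept the side of the rule, 5 lost the call and 10 gained one. These alternatives were total counts, TMM and olfactory receptor scaling and a prior count of 2. Direction was checked for called values alone, of which 0 reversed. Uncalled values counted as kept when they stayed uncalled and within their own interval, whatever their sign. Other intervals, minimums and thresholds, which changed the numbers of calls above, were not run for named regions.

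With an estimate of about 1 fragment or fewer per window in H3K79me3, single windows there are limited by depth.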
